A study of Mus musculus with 20 samples.

Results

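Genes of the semaphorin, plexin, ephrin, Eph receptor, Robo, slit and netrin families were followed in endothelial cells taken from E0771 tumours. Members were all protein-coding genes whose symbol is that of a semaphorin (Sema3a through Sema7a and their relatives), a plexin, an EphA or EphB receptor, an ephrin, a Robo receptor, a slit or a netrin. This name rule found 61 genes of 21560 protein-coding genes and of 46983 gene IDs in all, and it used no measured value. They comprised 20 semaphorins, 9 plexins, 14 Eph receptors, 8 ephrins, 4 Robo receptors, 3 slits and 3 netrins. Every member is accounted for, and 44 of the 61 passed the filter on low counts and were tested.

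These families were first described as cues that steer growing axons, and the same cues steer sprouting vessels. Semaphorins signal through plexins, the class 3 semaphorins mostly together with the neuropilins Nrp1 and Nrp2, while ephrins on one cell bind Eph receptors on its neighbour and slits bind Robo receptors. In the vasculature, ephrin-B2 (Efnb2) marks arteries and its receptor EphB4 (Ephb4) marks veins, plexin-D1 (Plxnd1) restrains and patterns sprouts, and Robo4 is a largely endothelial receptor that stabilises vessels.

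The cells were CD31-positive, enriched on beads and then sorted, and their RNA was sequenced in bulk. E0771 cells come from a mouse breast carcinoma, and here they formed tumours in the mammary fat pad that were collected at about 500 mm3. All hosts were C57BL/6J mice, and they fell into 6 backgrounds. Those classed by the submitters as lacking CD4+ T cells were TCRKO (n = 3), CD4KO (n = 3) and Tie2Cre_H2Abf (n = 4; Tie2Cre;H2Ab fl/fl). Those classed as holding CD4+ T cells were CD8KO (n = 3), Tie2Cre (n = 3) and WT (n = 4). Tie2Cre is a Cre recombinase under the Tie2 (Tek) promoter, which is active in endothelial and blood cells, so the floxed H2-Ab1 allele can be lost in both, and the Tie2Cre group carries the Cre without the floxed allele. The labels give no further allele for the knockouts and do not say that each library came from its own animal, so p-values measure the spread between these libraries. Libraries are named by background and label number.

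Total counts per library ran from 1543847 to 11478902 with a median of 7531926, of which protein-coding genes held a median of 24.2% and ribosomal-like and other abundant RNA a median of 75%. In WT_9771 satellite-like sequence made up 47.1% of counts, and in Tie2Cre_9501 it made up 19.7%. Olfactory receptor genes, which endothelium is not known to use, summed to 8420 counts-per-million of protein-coding counts in WT_9771, 5530 in Tie2Cre_9501, 1820 in CD4KO_9768 and 1340 in TCRKO_9767, against 33.8 to 863 in the other 16 libraries. The 12 endothelial markers were detected in every group and summed to 2493 to 7757 counts-per-million (CPM), while 6 tumour epithelium markers summed to 1.11 to 15.4 CPM in TCRKO libraries, 0.212 to 4.86 CPM in WT libraries and at most 6.23 CPM in the other backgrounds, with Epcam at 0 in 5 of the 6 groups. The 9 macrophage markers were also detected in every group, and their sum ran from 79.3 CPM in a Tie2Cre_H2Abf library to 580 CPM in a WT library. The part of such cells in the levels of the members was not tested. H2-Ab1 averaged 3.15 ± 2.68 CPM in Tie2Cre_H2Abf libraries and 60.1 ± 35.8 CPM in Tie2Cre libraries (SD, n = 4 and 3). Cd4 averaged 9.11 ± 5.84 CPM in CD4KO-labelled libraries and 6.82 ± 6.69 CPM in WT libraries, and Cd8a 52.4 ± 15.7 CPM in CD8KO-labelled libraries and 0.607 ± 1.21 CPM in WT libraries (SD, n = 3 and 4 each). Trac, a T cell receptor gene, was at 0.788 ± 0.245 CPM in TCRKO libraries and 0.202 ± 0.405 CPM in WT libraries. These RNA levels do not separate the libraries labelled CD4KO, CD8KO or TCRKO from WT in the direction of a lost gene, and the labels do not say which part of the gene the alleles remove.

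Levels of different genes are compared in transcripts-per-million (TPM), which are scaled for gene length, and are given as the median over the 20 libraries with the lowest and highest library. Members fell into 3 tiers. A first tier of 23 members had a median of at least 1 TPM, and these are called the measured members. At the other end, 24 members were listed at 0 in 10 or more libraries, and 14 lay between. By family, 10 of 20 semaphorins, 5 of 9 plexins, 3 of 14 Eph receptors, 3 of 8 ephrins, 1 of 4 Robo receptors, 1 of 3 netrins and 0 of 3 slits were measured members. Plexins held a median of 37.5% of the summed TPM of all members, semaphorins 32.7%, Robo receptors 16.1%, ephrins 7.39% and Eph receptors 5.56%, while netrins held 0.137% and slits 0.0672%. Abundant RNA took 17.2% to 86.8% of a library's counts, so the denominator of TPM differs between libraries, and groups are compared below in CPM scaled by TMM factors.

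Among the plexins, the receptors for semaphorins, Plxnd1 led with 198 TPM (31.4 to 946). The Plxnd1 gene lies at chr6:115954811-115995005, minus strand in GRCm38. It was the highest of all 61 members in 19 of 20 libraries and stood above 99.6% of protein-coding genes by median. Plxna2, a receptor for Sema6a, followed with 32 TPM (7.58 to 137). Plxnb2, a receptor for Sema4c and for angiogenin, had 23.4 TPM (0.9 to 286), Plxna1, a receptor for Sema6d, 17.1 TPM (1.4 to 63) and Plxna4, a receptor for Sema3a and class 6 ligands, 3.62 TPM (0.57 to 24.1). The remaining plexins were lower. Plxnb1, the receptor for Sema4d, had 0.99 TPM (0 to 8.73), just under the boundary of 1 TPM. Plxnc1, the receptor for Sema7a, had 0.5 TPM (0 to 12.6), Plxna3 0.08 TPM (0 to 3.84), and Plxnb3 was listed at 0 in 11 libraries.

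The bases upstream of the gene start are printed here for the top member, Plxnd1, for the arterial and venous pair Efnb2 and Ephb4, and for Sema6d, one of 6 members set apart in the Tie2Cre_H2Abf comparison further on. Each run is the 250 bases before a RefSeq start (GRCm38.p6) that is also the start of the gene in the GENCODE annotation. The Plxnd1 run lies at chr6:115995006-115995255 on the minus strand, Sema6d at chr2:124089719-124089968 on the plus strand, Efnb2 at chr8:8661243-8661492 on the minus strand and Ephb4 at chr5:137349859-137350108 on the plus strand. Capitals mark AGGAAG, a form of the core bound by ETS factors, which act in many endothelial genes, and GGGCGG, the GC box bound by Sp factors, each on either strand.
Plxnd1: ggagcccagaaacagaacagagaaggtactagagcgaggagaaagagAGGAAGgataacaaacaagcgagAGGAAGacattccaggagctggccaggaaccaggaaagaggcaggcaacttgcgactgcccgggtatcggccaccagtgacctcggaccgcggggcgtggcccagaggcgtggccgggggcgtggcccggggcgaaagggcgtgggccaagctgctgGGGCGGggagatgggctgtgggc
Sema6d: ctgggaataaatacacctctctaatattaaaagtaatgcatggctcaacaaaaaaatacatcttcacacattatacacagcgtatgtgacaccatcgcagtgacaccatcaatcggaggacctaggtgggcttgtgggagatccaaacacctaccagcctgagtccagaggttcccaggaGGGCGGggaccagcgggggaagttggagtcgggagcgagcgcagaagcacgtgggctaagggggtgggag
Efnb2: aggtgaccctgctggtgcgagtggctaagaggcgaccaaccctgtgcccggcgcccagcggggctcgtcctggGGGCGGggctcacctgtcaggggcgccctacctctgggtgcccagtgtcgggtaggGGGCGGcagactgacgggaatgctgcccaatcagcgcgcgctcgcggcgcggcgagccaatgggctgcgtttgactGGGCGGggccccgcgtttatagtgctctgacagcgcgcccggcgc
Ephb4: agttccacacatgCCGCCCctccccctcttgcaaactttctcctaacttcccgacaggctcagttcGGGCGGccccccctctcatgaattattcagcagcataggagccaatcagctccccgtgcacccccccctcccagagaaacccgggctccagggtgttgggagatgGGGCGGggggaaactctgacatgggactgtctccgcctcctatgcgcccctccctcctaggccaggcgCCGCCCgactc
AGGAAG occurred at 2 places before Plxnd1 and at 0 places before the other three. GGGCGG occurred at 3 places before Efnb2, at 4 before Ephb4 and at 1 each before Plxnd1 and Sema6d. Of 32851 such windows of all genes, 29.5% held AGGAAG and 32.7% held GGGCGG. RefSeq windows were matched for 53 of the 61 members, and of their 69 windows 34.8% held AGGAAG and 69.6% held GGGCGG. Among the 28 windows of measured members these shares were 32.1% and 75%, and among the 26 windows of members at 0 in 10 or more libraries 30.8% and 65.4%. No match of one motif overlapped a match of the other in the 4 printed runs, and a match describes letters, not binding.

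Among the semaphorins, Sema7a, a membrane-anchored ligand of integrins and plexin-C1 (chr9:57940112-57962865, plus strand), had 93.2 TPM (17.9 to 143). Sema3f, a secreted ligand that acts through Nrp2 (chr9:107681500-107710475, minus strand), had 75.3 TPM (6.38 to 312). The order of these 2 was not stable, since Sema7a was the higher in 9 of 20 libraries. The transmembrane class 6 ligands came next, with Sema6d at 34.9 TPM (2.77 to 172), Sema6b at 14.5 TPM (0.47 to 62.6) and Sema6a at 7.79 TPM (2.32 to 75.3). Of class 4, Sema4c had 10.6 TPM (2.01 to 31.6), Sema4d, a pro-angiogenic ligand of Plxnb1, 5.67 TPM (0.31 to 58.1) and Sema4a 2.52 TPM (0 to 29.7). Sema3g, a class 3 ligand of arterial endothelium, had 3.67 TPM (0.4 to 9.45) and Sema3a, the Nrp1 ligand, 1.31 TPM (0.04 to 11.4). Sema3e, the ligand that binds Plxnd1 without a neuropilin, had counts in 4 of 20 libraries only, 76 in all, and Sema3c had 6 counts over 5 libraries. Plxnd1 itself had 105628 counts over the 20 libraries.

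Of the ephrins, Efna1, a membrane-anchored ligand of EphA receptors, had 46.8 TPM (2 to 151), Efnb2 9.86 TPM (2 to 39.9) and Efnb1, a ligand of EphB receptors, 6.44 TPM (0.73 to 36.7), and the other 5 ephrins were at 0 in 10 or more libraries. Of the Eph receptors, Ephb4 had 17.3 TPM (1.34 to 128), Epha2, a receptor for Efna1, 15.6 TPM (0.74 to 41.3) and Epha4, which binds ephrins of both classes, 1.36 TPM (0 to 15.7). Ephb4 exceeded Efnb2 in 18 of 20 libraries, and Efna1 exceeded Epha2 in 18 of 20. Ephb1 had 0.87 TPM (0 to 2.96) and Ephb2 0.025 TPM (0 to 3.77), and 8 of the 14 Eph receptors were at 0 in 10 or more libraries.

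Robo4 (chr9:37401897-37415115, plus strand) had 115 TPM (23.3 to 566), the second highest of the set, and was the first in the 1 library where Plxnd1 was not. Robo1, a slit receptor, had 0.79 TPM (0 to 6.64) and Robo3 0.33 TPM (0 to 1.91), and Robo2 was listed at 0 in 13 libraries. The slits, ligands of Robo receptors, were low in these cells: Slit2 had 0.18 TPM (0 to 9.77), Slit3 0.09 TPM (0 to 9.98), and Slit1 had 10 counts in all 20 libraries together. Netrin-1 (Ntn1), whose repulsive receptor Unc5b lies outside the name rule, had 1.16 TPM (0.05 to 4.73), and Ntn4, a netrin of basement membranes, was at 0 in 10 libraries. Neighbours in the order often changed places: Efna1 was above Sema6d in 11 of 20 libraries, Plxna2 above Plxnb2 in 12 and Ephb4 above Plxna1 in 13, while Robo4 was above Sema7a in 17.

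**Figure D1:**
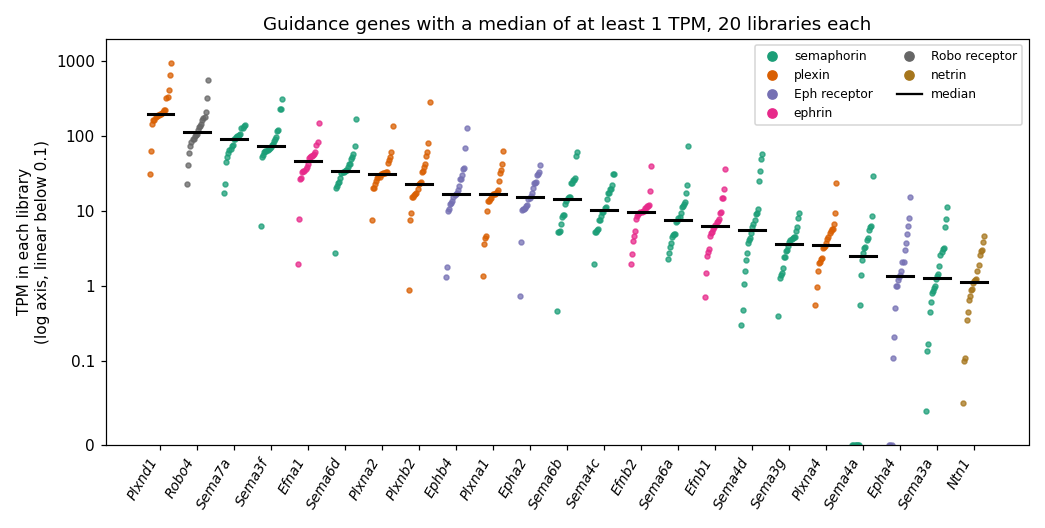
TPM of each of the 23 measured members (x axis, ordered by median) in the 20 libraries (points, 1 per library, sorted within a gene; y axis logarithmic above 0.1 TPM), with the median as a black line and the family as colour. Plxnd1 and Robo4 lead with medians of 198 and 115 TPM, and the last 4 genes, from Sema4a to Ntn1, have medians between 1.16 and 2.52 TPM, with Sema4a and Epha4 at 0 in some libraries.

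In CPM the coefficient of variation of measured members over the 20 libraries had a median of 52.5% (36.9% to 179%). The median was 160% in the 14 intermediate members and 255% in the 24 at 0 in 10 or more libraries. The tiers were cut on levels in these same libraries, so this order follows largely from the cut. Plxna2, Sema6d and Efnb2 were among the steadiest within a background, with a within-group SD of 0.495, 0.54 and 0.599 on the log2 CPM scale (0.5 CPM added), and Sema4a and Sema4d among the least steady, with 2.07 and 1.92.

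The first comparison set the 10 libraries of the CD4-deficient backgrounds against the 10 of the competent ones. With the quasi-likelihood test of edgeR, 0 of the 44 tested members passed an adjusted p of 0.05, where 0% of the 14875 genes tested passed. DESeq2 and limma-voom also called 0 members. At an unadjusted p under 0.05 there were 1 member higher and 6 lower, where 1.9% of all genes tested were higher and 5.37% lower by that rule. Of the 23 measured members 12 were higher and 11 lower, with a median log2 fold change of 0.10, against 52.7% positive and a median of 0.03 among all 8977 genes with a median of at least 1 TPM. The fit treated libraries of different backgrounds as replicates of a status, so its p-values do not measure the spread between backgrounds. With means of backgrounds, 10 measured members were higher and 13 lower with a median of -0.04. The named members at either end were sparse. Robo2 had a lowest, median and highest level of 0, 0 and 0.533 CPM in the deficient libraries and of 0, 1.32 and 21.9 CPM in the competent ones, 4 counts in all in deficient against 144 in competent libraries, with a log2 fold change of -5.88 ± 1.42 (edgeR adjusted p = 0.375). Sema5a, a class 5 semaphorin, gave -3.74 ± 1.29 (16 counts in deficient against 149 in competent libraries, edgeR adjusted p = 0.453). Sema4b gave 1.99 ± 0.97 (485 counts in deficient against 119 in competent libraries, edgeR adjusted p = 0.685). Of the Sema4b counts in deficient libraries, 169 were in TCRKO_9767, 112 in TCRKO_9766 and 83 in CD4KO_9768, while CD4KO_9769 and CD4KO_9770 had 0. Sema3d gave -2.52 ± 0.91 (edgeR adjusted p = 0.493), Robo1 1.32 ± 0.75 and Plxna3 2.16 ± 1.15. For each of these 6 genes the ranges of the groups overlapped. Among abundant members, Plxnd1 averaged 704 ± 282 CPM in deficient and 596 ± 295 CPM in competent libraries (SD, n = 10 each), a log2 fold change of 0.24 ± 0.28.

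Most measured members had higher levels in Tie2Cre_H2Abf libraries than in their Tie2Cre controls, though no member passed. Plxna2, Sema6d, Plxnd1, Sema3f, Efnb2 and Epha2 were each higher in all 4 Tie2Cre_H2Abf libraries than in all 3 Tie2Cre libraries. Set beside WT libraries, the Tie2Cre_H2Abf values of Plxnd1, Sema3f, Efnb2 and Epha2 lay inside the WT range, and those of Plxna2 overlapped it. Of the 6, only Sema6d was above every WT library, at 197 to 296.5 CPM against 38.9 to 182 CPM. In bulk RNA, a difference in the share of cells that hold a transcript cannot be told apart from a difference in RNA per cell. Called by edgeR at an adjusted p of 0.05 were 0 of 44 members, where 0.0202% of all genes tested were called, and DESeq2 and limma-voom called 0 as well. At an unadjusted p under 0.05 there were 4 members higher and 4 lower, where 2.69% of all genes were higher and 5.86% lower by that rule. Of the 23 measured members 16 were higher and 7 lower with a median log2 fold change of 0.52, while 52.6% of all genes with a median of at least 1 TPM were higher with a median of 0.06. The 6 members without overlap, all measured members, stand beside 7.65% of those genes (5.41% of all genes tested) that were higher without overlap.

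Plxna2 was at 267, 316, 364 and 376 CPM in Tie2Cre_H2Abf libraries and at 127, 162 and 209.6 CPM in Tie2Cre libraries, with a log2 fold change of 0.98 ± 0.39 and an adjusted p of 0.576 (edgeR). Sema6d was at 197, 231, 279.7 and 296 CPM in Tie2Cre_H2Abf libraries and at 104, 134 and 139.7 CPM in Tie2Cre libraries, a log2 fold change of 0.98 ± 0.40 (edgeR adjusted p = 0.576). These 2 genes had the smallest standard errors of the 6. For Plxnd1 the levels were 573, 785, 852 and 889.7 CPM in Tie2Cre_H2Abf against 175, 432 and 519.8 CPM in Tie2Cre libraries (log2 fold change 1.04 ± 0.46), with Tie2Cre_9501 the lowest. For Sema3f they were 119, 123, 175 and 234 CPM in Tie2Cre_H2Abf against 56.1, 64.7 and 76.1 CPM in Tie2Cre libraries (1.30 ± 0.58). Both had an edgeR adjusted p of 0.576, and in both the 3 controls lay below every Tie2Cre_H2Abf library. Efnb2 was at 36.2, 37.2, 46.2 and 48.8 CPM in Tie2Cre_H2Abf and 11, 20.6 and 35.8 CPM in Tie2Cre libraries (log2 fold change 0.89 ± 0.50). Epha2 was at 58.6, 63.9, 66.2 and 70.8 CPM in Tie2Cre_H2Abf and 26, 44.6 and 58.2 CPM in Tie2Cre libraries (0.58 ± 0.69); the gap between the groups was narrow for both, and their edgeR adjusted p was 0.614 for Efnb2 and 0.838 for Epha2.

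Robo4, Sema7a and Ephb4 leaned the same way with overlapping groups, while some other members with vascular roles did not. Robo4 was at 426, 439, 532 and 591 CPM in Tie2Cre_H2Abf and 248, 328 and 487 CPM in Tie2Cre libraries (0.48 ± 0.44), and Sema7a was at 206, 211, 391 and 393 CPM in Tie2Cre_H2Abf against 46.9, 223 and 252 CPM in Tie2Cre libraries (0.78 ± 0.51). Ephb4 was at 58.1, 71.7, 79.3 and 85.4 CPM in Tie2Cre_H2Abf against 23.6, 29.7 and 90.9 CPM in Tie2Cre libraries (0.60 ± 0.62). In all 3 the control Tie2Cre_9502 reached the Tie2Cre_H2Abf range, and for Sema7a Tie2Cre_9504 did too. On the lower side, Epha4 was at 0.508, 1.45, 3.37 and 4.78 CPM in Tie2Cre_H2Abf and 4.75, 11.7 and 32.2 CPM in Tie2Cre libraries (-2.70 ± 1.34, edgeR adjusted p = 0.578). Efnb1 was at 4.63, 5.5, 17.8 and 20.7 CPM in Tie2Cre_H2Abf and 11.8, 19.1 and 36 CPM in Tie2Cre libraries (-0.89 ± 0.68). The groups overlapped for both, for Epha4 by 1 library on each side. Means were also lower in Tie2Cre_H2Abf than in Tie2Cre libraries, with overlap, for Sema4d (12.1 against 19.5 CPM), Sema3a (5.89 against 12.6 CPM) and Sema6a (30.5 against 33.8 CPM). Slit3 had 0 counts in the Tie2Cre_H2Abf libraries and 1.1, 1.38 and 1.58 CPM in Tie2Cre libraries, which are 3, 11 and 13 counts. It was the one member lower without overlap, where 3.71% of all genes were. Without the 2 satellite-rich libraries (here Tie2Cre_9501), 14 measured members were higher and 9 lower with a median log2 fold change of 0.23, and leaving out Tie2Cre_9501 alone gave 0.21. Leaving out Tie2Cre_9502 gave 18 higher and 5 lower with a median of 0.94. At an unadjusted p under 0.05 (edgeR), 0 of 47 tested members were higher and 3 lower without Tie2Cre_9501. Without both satellite-rich libraries, 3 of 43 tested members were higher and 3 lower by that rule.

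Summed levels of marker lists in the same libraries are given beside these values. The 12 endothelial markers summed to 5199 to 7757 CPM in Tie2Cre_H2Abf and 3268 to 6372 CPM in Tie2Cre libraries, and 11 of the 12 had a positive fold change with a median of 0.34 on the log2 scale. The 6 arterial markers summed to 389 to 483 CPM in Tie2Cre_H2Abf and 212 to 292 CPM in Tie2Cre libraries, and the 6 tip cell markers (among them Apln, Esm1 and Angpt2, and Dll4, which is also in the arterial list) to 1153 to 1554 CPM in Tie2Cre_H2Abf and 193 to 649.5 CPM in Tie2Cre libraries. Venous markers summed to 552 to 1009 CPM in Tie2Cre_H2Abf and 549 to 817 CPM in Tie2Cre libraries, and these ranges overlap. Markers of macrophages summed to 79.3 to 440.3 CPM in Tie2Cre_H2Abf and 141 to 239.8 CPM in Tie2Cre libraries, which overlap. Other lists separated the groups without overlap. Lymphatic markers summed to 154 to 215 CPM in Tie2Cre_H2Abf and 60.1 to 102 CPM in Tie2Cre libraries, and glial and neuronal markers to 16.6 to 48.3 CPM in Tie2Cre_H2Abf and 4.51 to 13 CPM in Tie2Cre libraries. Mural markers were on the lower side, at 8.83 to 14.4 CPM in Tie2Cre_H2Abf and 23.8 to 59 CPM in Tie2Cre libraries, as were platelet and red cell markers, at 0.354 to 5.5 CPM in Tie2Cre_H2Abf and 5.64 to 9.53 CPM in Tie2Cre libraries. The part of these lists in the levels of the guidance genes was not tested.

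**Figure D2:**
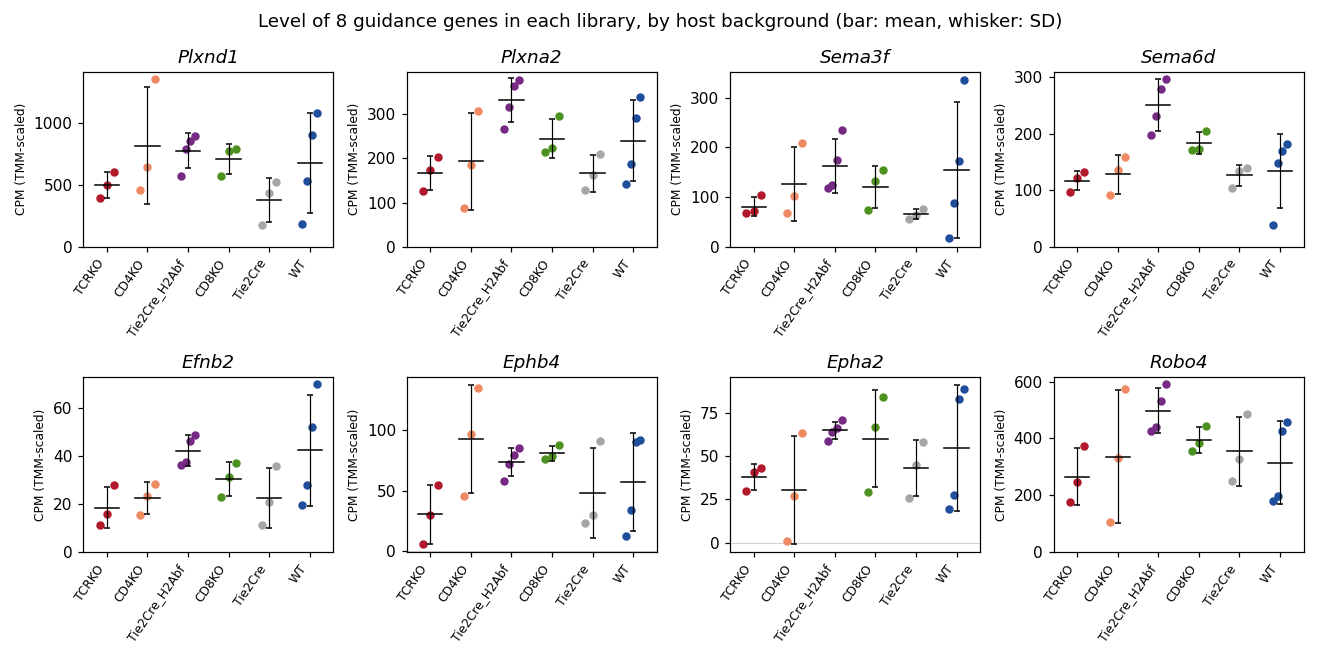
CPM (y axis, TMM-scaled, linear) of 8 guidance genes in each library (points), by host background (x axis, deficient backgrounds left of competent ones); the bar is the mean and the whisker 1 SD (n = 3 or 4). For Plxna2, Sema6d and Efnb2 the 4 Tie2Cre_H2Abf libraries sit above the 3 Tie2Cre libraries, while WT libraries spread widely, for example 19.4, 27.8, 51.8 and 69.6 CPM for Efnb2.

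In TCRKO libraries, compared with WT, most measured members were lower, and again no member passed. Of the 23, 3 were higher and 20 lower with a median log2 fold change of -0.37, against 50.3% higher and a median of 0.01 among all genes with a median of at least 1 TPM. EdgeR called 0 of 44 members at an adjusted p of 0.05, where 0.0269% of all genes were called, and DESeq2 and limma-voom called 0. At an unadjusted p under 0.05 there were 1 member higher and 4 lower, where 3.99% of all genes were higher and 4.66% lower by that rule. Efnb2 was at 11.3, 15.8 and 27.9 CPM in TCRKO libraries and 19.4, 27.8, 51.8 and 69.6 CPM in WT libraries, with a log2 fold change of -1.21 ± 0.51 (edgeR adjusted p = 0.557). One TCRKO library reached above 2 of the WT libraries, so the groups overlapped.

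Plxnb2 was at 61.4, 85 and 90.8 CPM in TCRKO and 111, 118, 168 and 239.7 CPM in WT libraries (-1.01 ± 0.65, edgeR adjusted p = 0.652). It and the sparse Sema3d were the 2 members lower without overlap, where 2.08% of all genes were. Ephb4 was at 5.89, 30.3 and 54.7 CPM in TCRKO and 12.1, 34.4, 89.9 and 92.4 CPM in WT libraries (-0.92 ± 0.63), and Sema3f at 67.9, 71.2 and 103 CPM in TCRKO and 17.8, 88.8, 173 and 336 CPM in WT libraries (-0.93 ± 0.57). For both, the TCRKO values fell inside the WT range, apart from TCRKO_9767 for Ephb4. Epha4 gave -3.91 ± 1.58 and had 0, 0.984 and 1.36 CPM in TCRKO and 0, 0, 6.61 and 41.3 CPM in WT libraries; the WT mean rests on WT_9771, and without it the value was -1.53. Higher was Plxnb1, at 2.49, 6.03 and 24.7 CPM in TCRKO and 0, 0.189, 0.809 and 2.65 CPM in WT libraries (3.53 ± 1.29, edgeR adjusted p = 0.534), the smallest p of any member in this comparison. It lay under 1 TPM by median, and 1 WT library overlapped with 1 TCRKO library. Plxna3 gave 2.42 ± 1.77 and Sema4b 2.42 ± 1.65, both with overlapping groups.

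The 20 to 3 split depended on single WT libraries. Leaving out WT_9748, the WT library with the most Plxnd1 and Sema3f, gave 9 members higher and 14 lower with a median of -0.12, and leaving out WT_9771 gave 2 higher and 21 lower with a median of -0.69. In TCRKO libraries the venous markers summed to 154 to 204 CPM and in WT libraries to 306 to 1317 CPM. Arterial markers summed to 183 to 303 CPM in TCRKO and 146.5 to 457 CPM in WT libraries, which overlap. Tip cell markers summed to 1035 to 1232 CPM in TCRKO and 202 to 714 CPM in WT libraries, and the endothelial list had 4 of 12 genes higher and 8 lower with a median of -0.28. The part of these lists in the guidance values was not tested.

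**Figure D3:**
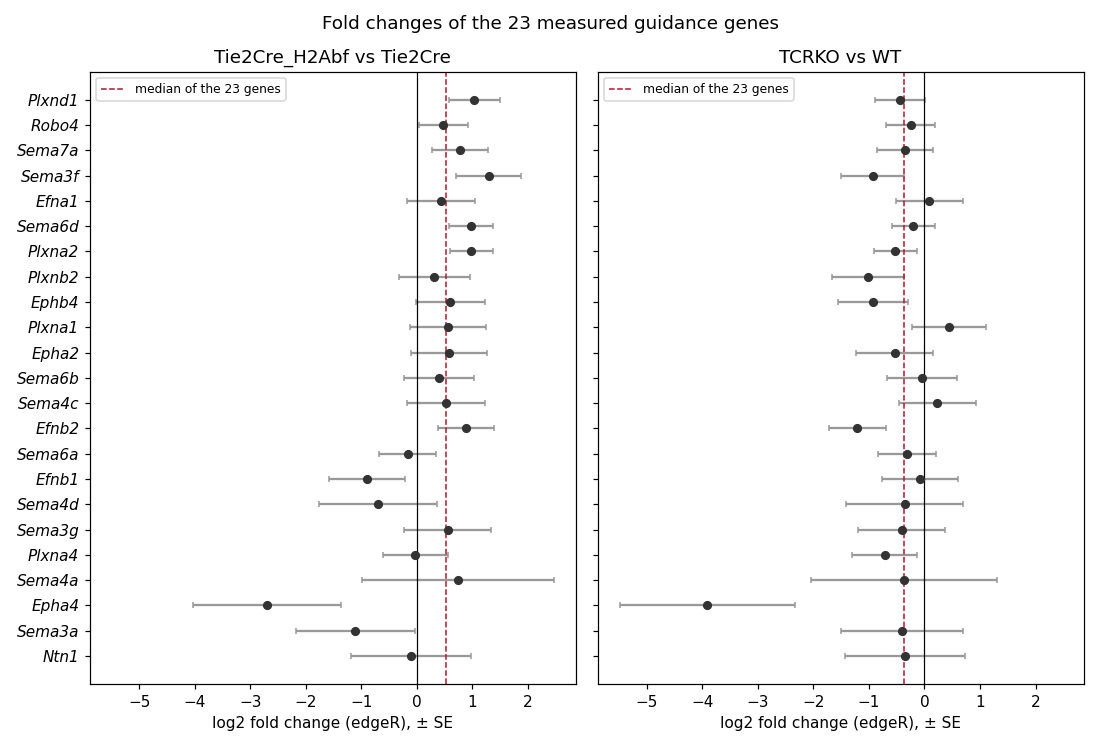
Log2 fold changes (x axis, edgeR, ± SE) of the 23 measured members (y axis, by median TPM) in Tie2Cre_H2Abf against Tie2Cre (left panel) and TCRKO against WT (right panel); the dashed line is the median of the 23, 0.52 and -0.37. Most points lie right of 0 on the left and left of 0 on the right, with standard errors that often reach 0.

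These 2 comparisons share no library, and the difference between them, the Tie2Cre_H2Abf effect minus the TCRKO effect, was fitted as 1 contrast. The contrast is built from the same values as the 2 comparisons, so the direction in which it leans follows from them. It called 0 of 44 members by edgeR, where 0% of all genes were called, and 0 by DESeq2 and limma-voom. At an unadjusted p under 0.05 there were 5 members positive and 2 negative, where 3.04% of all genes were positive and 3.76% negative by that rule. Of the measured members 20 were positive and 3 negative with a median of 0.96, against 51.9% positive and a median of 0.05 among all genes with a median of at least 1 TPM. Without WT_9748 there were 15 positive and 8 negative with a median of 0.54, and without Tie2Cre_9501 also 15 and 8 with a median of 0.58. Efnb2 gave 2.10 ± 0.72 (edgeR adjusted p = 0.578), Plxna2 1.50 ± 0.55 (0.598) and Sema3f 2.23 ± 0.82 (0.599). Plxnd1 gave 1.47 ± 0.65, Sema6d 1.18 ± 0.56 and Ephb4 1.53 ± 0.89. On the negative side, Plxnb1 gave -3.60 ± 1.71 (edgeR adjusted p = 0.724). The endothelial markers had 9 of 12 positive with a median of 0.62 in the same contrast.

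CD4KO-labelled libraries, compared with WT, split both ways: 9 measured members were higher and 14 lower with a median log2 fold change of -0.19, against 53.7% higher and a median of 0.07 among all genes with a median of at least 1 TPM. Without WT_9748 there were 14 higher and 9 lower with a median of 0.33, without CD4KO_9768 13 higher and 10 lower with a median of 0.05, and limma-voom gave 13 higher and 10 lower with a median of 0.13. Called were 0 of 44 members (edgeR; 0% of all genes), also 0 by DESeq2 and limma-voom, with 1 higher and 3 lower at an unadjusted p under 0.05, where 4.03% of all genes were higher and 4.55% lower. Sema6a was at 30.5, 42.9 and 66.5 CPM in CD4KO-labelled libraries and 12.1, 18.9, 25.1 and 40.0 CPM in WT libraries (0.94 ± 0.52, edgeR adjusted p = 0.605), and Sema6b at 16.2, 66.2 and 98.5 CPM in CD4KO-labelled and 4.05, 12.8, 27.2 and 66.3 CPM in WT libraries (1.11 ± 0.63, edgeR adjusted p = 0.619). These class 6 ligands were also on the higher side in CD8KO-labelled libraries, which share the WT controls: Sema6a was at 27.4, 53.2 and 63.1 CPM (0.98 ± 0.52) and Sema6b at 43.4, 54.6 and 77.1 CPM (1.05 ± 0.63) there. In each case 1 or more WT libraries lay inside the range of the knockouts.

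In CD8KO-labelled libraries 12 measured members were higher and 11 lower than in WT, with a median of 0.02, against 55.1% higher and a median of 0.10 among all genes with a median of at least 1 TPM. Without WT_9748 there were 17 higher and 6 lower with a median of 0.39, and without WT_9771 9 higher and 14 lower with a median of -0.16. EdgeR called 0 members (0% of all genes) and limma-voom 0, with 0 higher and 3 lower at an unadjusted p under 0.05, where 2.57% of all genes were higher and 7.97% lower. DESeq2 called 1, Epha7 (adjusted p = 3.49e-09), a sparse Eph receptor with 0 counts in the 3 CD8KO-labelled libraries and counts of 0, 0, 3 and 13 in the 4 WT libraries. Since 1 group is at 0, no fold is given, and edgeR gave an adjusted p of 0.465. Among abundant members Plxnd1 was at 571, 773 and 789 CPM in CD8KO-labelled libraries and 180.5, 533, 904 and 1081 CPM in WT libraries (0.07 ± 0.45), and Plxna2 at 214, 224 and 296 CPM in CD8KO-labelled and 142, 188, 292 and 339 CPM in WT libraries (0.02 ± 0.38). For both genes the CD8KO-labelled libraries lay within the WT range.

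Tie2Cre libraries, compared with WT, had 7 measured members higher and 16 lower with a median of -0.35, against 49.6% higher and a median of -0.01 among all genes with a median of at least 1 TPM. The libraries of the Tie2Cre and Tie2Cre_H2Abf backgrounds carry label numbers starting with 95 and all others numbers starting with 97. Every Tie2Cre number also lies below every Tie2Cre_H2Abf number. Label numbers of the TCRKO, CD4KO and CD8KO libraries each form an unbroken run, with WT numbers below and above it. The part of such runs in the comparisons was not tested. For Tie2Cre_H2Abf against Tie2Cre a run of numbers and the background cannot be told apart, and the same holds for Tie2Cre against WT. Without WT_9748 there were 13 higher and 10 lower with a median of 0.09, and without Tie2Cre_9501 12 higher and 11 lower with a median of 0.01, so the direction rests on single libraries. EdgeR called 0 of 44 members (0% of all genes), DESeq2 and limma-voom 0, with 1 higher and 1 lower at an unadjusted p under 0.05, where 3.97% of all genes were higher and 2.88% lower. Sema3f was at 56.1, 64.7 and 76.1 CPM in Tie2Cre and 17.8, 88.8, 173 and 336 CPM in WT libraries (-1.22 ± 0.58, edgeR adjusted p = 0.722), and all Tie2Cre values fell between the lowest and the second lowest WT library. Plxnd1 gave -0.84 ± 0.46 and Efnb2 -0.90 ± 0.50. Higher in Tie2Cre libraries was Plxnb1, at 2.57, 2.76 and 12.4 CPM against 0, 0.189, 0.809 and 2.65 CPM in WT libraries (2.65 ± 1.26, edgeR adjusted p = 0.722), with 2 of the 3 Tie2Cre libraries above every WT library. Sema3a gave 1.13 ± 1.08 and Sema6a 0.49 ± 0.52. Slit3 was the 1 member higher without overlap, where 2.81% of all genes were, at 1.1, 1.38 and 1.58 CPM in Tie2Cre and 0, 0, 0 and 0.809 CPM in WT libraries. In counts these were 3, 11 and 13 in Tie2Cre and 0, 0, 0 and 1 in WT libraries. The 3 counts (Tie2Cre_9501) and the 1 count (WT_9771) come from the 2 satellite-rich libraries, so the gap between the groups is uncertain.

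The arterial to venous pair was also read as a ratio within each library, the log2 of Efnb2 TPM over Ephb4 TPM. The scaling for library depth drops out of this ratio, but the noise of low counts does not. The ratio was -2.35, -0.12 and 1.35 in TCRKO, -2.66, -1.93 and -1.60 in CD4KO-labelled libraries and -1.13, -0.97, -0.94 and -0.41 in Tie2Cre_H2Abf libraries. It was -1.68, -1.43 and -1.28 in CD8KO-labelled libraries, -1.60, -1.47 and -0.34 in Tie2Cre and -1.01, -0.57, -0.46 and 0.58 in WT libraries. The value of 0.58 (WT_9771) rests on 24 Efnb2 and 15 Ephb4 counts, and that of 1.35 (TCRKO_9767) on 70 and 26. Every library labelled CD4KO or CD8KO had a lower ratio than every WT library, by a mean difference of -1.70 and -1.10 on the log2 scale. Exact two-sided permutation tests gave 0.0571 for each, the smallest p that 3 against 4 libraries allow, and 0.171 after Benjamini-Hochberg adjustment over the 6 tests made. These 2 comparisons share the WT libraries. For TCRKO against WT the difference was -0.00758 with an exact p of 1, for Tie2Cre_H2Abf against Tie2Cre 0.275 with an exact permutation p of 0.571, for Tie2Cre against WT -0.772 with an exact permutation p of 0.229 (adjusted 0.457), and by CD4 status -0.149 with an exact permutation p of 0.738. The ratio was chosen for a test after its values had been seen. Arterial markers summed to 207 to 309 CPM in CD4KO-labelled, 209 to 354 CPM in CD8KO-labelled and 146.5 to 457 CPM in WT libraries. Venous markers summed to 463 to 896.5 CPM in CD4KO-labelled, 355.5 to 837.5 CPM in CD8KO-labelled and 306 to 1317 CPM in WT libraries. For both lists the knockout-labelled libraries overlapped WT, so the lower ratio is a statement about Efnb2 and Ephb4 alone.

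Of 49 partner genes of these pathways outside the name rule (neuropilins, Unc5 and Flrt proteins, collapsin response mediators and others), 46 were tested and edgeR called 0 in each of the 7 comparisons. Nrp1 had a median of 16.1 TPM and Nrp2 of 17.8 TPM, so both co-receptors of class 3 semaphorins were present. Nrp1 averaged 83.8 ± 16.1 CPM in Tie2Cre_H2Abf and 82.7 ± 19.4 CPM in Tie2Cre libraries (SD, n = 4 and 3), and Nrp2 58.6 ± 19 CPM in Tie2Cre_H2Abf and 89.3 ± 26.5 CPM in Tie2Cre libraries (log2 fold change -0.62 ± 0.41). Unc5b, a netrin receptor of tip and arterial endothelium with a median of 16.1 TPM, was at 107, 123, 133 and 157 CPM in Tie2Cre_H2Abf and 29.7, 39.9 and 61.5 CPM in Tie2Cre libraries (1.56 ± 0.58, edgeR adjusted p = 0.576). It and Dpysl2 (0.91 ± 0.40) were among 4 partners higher without overlap there, of 46, beside 5.41% of all genes tested. In that comparison 23 partners were higher and 23 lower with a median of -0.03, whereas the difference of effects had 30 positive and 16 negative with a median of 0.30. Gipc1, an adaptor that binds plexin tails, gave 1.60 ± 0.63 in TCRKO libraries (edgeR adjusted p = 0.54), 1.45 ± 0.63 in CD4KO-labelled (0.574) and 1.78 ± 0.63 in CD8KO-labelled libraries (0.465), all against the same WT libraries. Gpc1, a glypican that binds slits, had 191 counts in TCRKO, 84 in CD4KO-labelled and 0 in WT libraries. It had 28 counts in CD8KO-labelled, 19 in Tie2Cre and 7 in Tie2Cre_H2Abf libraries. Single libraries stood out, with Gpc1 at 19.2 CPM in TCRKO_9766 against 0.984 and 4.75 CPM in the other TCRKO libraries. CD4KO_9770 was at 5.69 CPM, against 0.216 and 0.767 CPM in the other CD4KO-labelled libraries. By CD4 status Flrt2, a ligand of Unc5 receptors, gave -1.21 ± 0.54.

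The summed level of the rarely detected members was highest in 4 libraries of 4 different backgrounds. The 24 members at 0 in 10 or more libraries summed to 78.5 CPM in WT_9771, 54.3 CPM in Tie2Cre_9501, 52.1 CPM in CD4KO_9768 and 15.4 CPM in TCRKO_9767, the 4 libraries with the most olfactory receptor counts, and to at most 12.5 CPM in the other 16. Of these 24 genes, 8 had their highest level in WT_9771, 3 each in CD4KO_9768 and TCRKO_9767 and 1 in Tie2Cre_9501, and the others elsewhere. The number of the 61 members with any count ran from 29 in WT_9749 to 49 in WT_9771 and TCRKO_9767, although the total count of WT_9771, 2014883, was the second lowest of the 20. Sema3e had 20.5 CPM in Tie2Cre_9501, 9.71 CPM in WT_9771, 1.08 CPM in CD4KO_9768 and 0.679 CPM in TCRKO_9767 and was at 0 in the other 16 libraries. Slit2 had 18.6 CPM in WT_9771 and 9.9 CPM in Tie2Cre_9501, and at most 4.53 CPM elsewhere. The 14 intermediate members, among them Plxnb1, Ephb1, Robo1, Sema4b and Sema3d, had 56 to 1188 counts over all 20 libraries. What these libraries' counts of olfactory receptor and satellite sequence contribute to such members was not tested, and a level of 3 counts corresponded to between 0.128 and 2.43 CPM depending on the library.

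**Figure D4:**
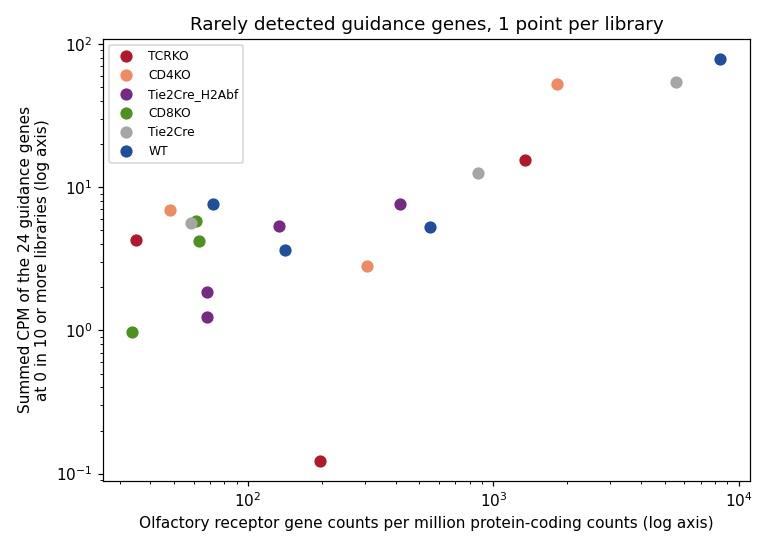
Summed CPM of the 24 guidance genes at 0 in 10 or more libraries (y axis, log) against olfactory receptor gene counts-per-million of protein-coding counts (x axis, log), 1 point per library, coloured by background. The 3 libraries with 52.1, 54.3 and 78.5 CPM lie at 1820, 5530 and 8420 in olfactory receptor level on that scale.

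Exons of 13 members share bases with another annotated gene, mostly on the opposite strand, and since the library kit does not mark strand such reads cannot be told apart. For the abundant members this touched 10.7% of the exon bases of Plxna1 (with the gene Gm26811, median 0.345 TPM) and 7.27% of those of Sema4c, and for Ephb4 it was 0.711%. For Plxnb1 the shared part was 2.68%, with a gene on the opposite strand that reached 11.2 TPM in 1 library. Epha1, with a median of 0.105 TPM and 56 counts in all, shares 6.01% of its exon bases with Zyx on the opposite strand, which had a median of 16.9 TPM and at most 149 TPM, so the level of Epha1 is uncertain.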

How the data were processed

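CD31-positive cells from E0771 tumours were sequenced as bulk RNA in 20 libraries. Libraries came from amplified RNA and the Nextera XT kit, per the labels' protocols, and this kit keeps no strand. Reads were processed with bcl2fastq 2.17, STAR, RSEM 1.2.28 and DESeq2 on the build GRCm38, per the submitters' processing notes, and the version of STAR and the annotation release are not given in the sources used here. The authors deposited 1 table per library with an expected count per gene ID, which is RSEM's estimated count without normalization per the file headers, and with TPM, which is scaled for length and depth. Of the expected counts 4.45% were not whole, and all were rounded.

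Symbols, biotypes and positions came from a GENCODE M21 annotation (GRCm38), and promoter bases from RefSeq. In R 4.3.3, edgeR's quasi-likelihood model (version 4.0.16) was fitted to the whole table with TMM factors, keeping 14875 genes by filterByExpr, and p-values were adjusted by Benjamini-Hochberg over all of them, with a threshold of 0.05. CD4 status was fitted with 2 groups and the other comparisons with 6 groups that share 1 estimate of the spread, with biological coefficients of variation of 1.08 and 0.995. Standard errors were derived from the F statistic. CPM use effective library sizes. Alternatives were DESeq2 1.42.0, limma-voom (limma 3.58.1) with sample weights, RLE factors, other filters, protein-coding genes only, only the groups compared, means of backgrounds and leaving out libraries. The fit was tested on simulated data. The 24 replicate pairs differed by a chi-square of 15.9 to 544 per degree of freedom over genes, so none agreed within sampling noise or was counted as a duplicate, which does not show that they come from separate animals.

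The members, the partner and marker lists and the comparisons were chosen with earlier results of these data known. Named with values are the 15 members highest in TPM, 25 members with known vascular roles, among members averaging 1 CPM or more the 3 of lowest p per direction and comparison, Nrp1, Nrp2 and the 2 partner genes of lowest p per comparison. Not all are printed, and where 1 group had at most 3 counts no fitted edgeR fold is given.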

Additional observations from a re-analysis of the deposited data

Results flagged for a closer look

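In groups of 4 libraries, 72 checks were made of whether 1 library of a named member lay far from the other 3, by Dixon's ratio at its 95% critical value, and 13 were past it. Chance gives about 1 in 20 such groups where values are normally distributed. For 6 of the 13 (Ntn4, Sema3c, Sema3e, Slit2 and Slit3 in WT and Robo2 in Tie2Cre_H2Abf) the other 3 libraries were at 0, so that any count is past the value and that rate does not apply. In 11 of the 13 the library was WT_9771, which held the highest of the 4 WT values. Its levels were 41.29 CPM for Epha4, 25.91 CPM each for Ephb2 and Sema5a, 21.86 CPM for Robo2, 18.62 CPM for Slit2, 13.76 CPM for Sema4b, 10.52 CPM for Epha7 and 9.715 CPM for Sema3e. In the same library Ntn4 had 4.048 CPM, and Sema3c and Slit3 had 0.8095 CPM each, which is 1 count. WT_9771 is the library with the most satellite-like sequence (47.1% of counts) and the most olfactory receptor counts, and the part of these in the levels above was not tested. The other 2 were Sema3g, with 57.96 CPM in WT_9749, and Robo2, with 0.5326 CPM in Tie2Cre_H2Abf_9583 beside 0 in the other 3 libraries of that background.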

How the results depend on the processing

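No member was called in any of the 7 comparisons under any alternative except DESeq2, which called 1 (Epha7) in CD8KO against WT. Leaving out each library in turn called 0 members, and the median log2 fold change of the 23 measured members then ran between -0.0735 and 0.158 for CD4 status, -0.689 and -0.116 for TCRKO, -0.297 and 0.331 for CD4KO, -0.16 and 0.391 for CD8KO, 0.214 and 0.937 for Tie2Cre_H2Abf, -0.575 and 0.0863 for Tie2Cre against WT, and 0.542 and 1.15 for the difference of effects.

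Direction turned for Ephb2 in CD8KO against WT (0.71 without the 2 satellite-rich libraries), for Plxnb1 in CD4KO against WT and for Sema6a in Tie2Cre against WT. Leaving out 1 library, these ran between -8.02 and 0.67, -0.60 and 4.10, and -0.11 and 0.85; the cause was not tested. By CD4 status the measured members stood at 12 higher and 11 lower, at 8 and 15 without the satellite-rich libraries and at 10 and 13 with means of backgrounds. Over all genes the calls of edgeR, DESeq2 and limma-voom were 0, 11 and 8 by CD4 status, 4, 177 and 5 in TCRKO, 0, 94 and 0 in CD4KO, 0, 82 and 1 in CD8KO, 3, 57 and 15 in Tie2Cre_H2Abf, 0, 78 and 0 in Tie2Cre against WT, and 0, 72 and 0 for the difference. With RLE factors the median of all genes moved to -0.372 in CD8KO, -0.427 in Tie2Cre_H2Abf, -0.322 in TCRKO and -0.205 in CD4KO, against -0.178, -0.237, -0.198 and -0.0787 with TMM. The removal of the 4 libraries with the most olfactory receptor counts was chosen after seeing the data and gave a median of 0.23 in Tie2Cre_H2Abf. Measured members numbered 29 by CPM and 31 by TPM over protein-coding genes. No paired analysis was possible because each library number is used once. Depth limits the 24 rarely detected members most, since 3 counts are 0.128 to 2.43 CPM.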
